A study of Mus musculus with 9 samples.

Results

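The keratin genes of MyC-CaP cells were followed over 24 h with the HER3 ligand NRG1, with Krt13 as the gene of interest. Members were the rows of the gene count table whose symbol is Krt with a number and at most 1 further letter, and whose counts summed to at least 90 over the 9 libraries. This gave 18 of 15552 genes, which are Krt4, Krt6a, Krt7, Krt8, Krt10, Krt13, Krt15, Krt18, Krt19, Krt23, Krt32, Krt36, Krt76, Krt78, Krt79, Krt80, Krt83 and Krt87. A further 23 keratin rows lay below the threshold. Just inside it were Krt18 with 96 summed counts and Krt87 with 100, and just outside it were Krt31 with 83 and Krt17 with 74. Members were thus chosen by their summed count over all libraries, and a high level is not a finding about them. Krt13 was singled out with its response already known, so its own values are given as a description. The main counts of members called or past the adjusted p are given with and without it.

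MyC-CaP is an established line from the prostate tumor of a mouse carrying a MYC transgene under a prostate-specific promoter, and all libraries come from this single line. Cells adhered for 24 to 48 h and were held for 6 to 12 h in medium without serum or calcium, and recombinant NRG1 is listed in the labels at 15 ng/mL. RNA was harvested after 0, 12 and 24 h with NRG1, with 3 libraries at each time, all labelled NRG1-treated, the 0 h libraries included. No library of starved cells left without NRG1 for 12 or 24 h was analysed here, so time with NRG1 and time in the starvation medium cannot be told apart. The labels call the replicates biological and describe wells plated in triplicate, so p-values measure the spread between these wells.

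Keratins are the intermediate filament proteins of epithelial cells. An acidic type I and a neutral to basic type II chain pair as obligate heterodimers, and the pairs made change with the kind of epithelium. KRT8 with KRT18 or KRT19 marks simple epithelium such as prostate luminal cells, KRT5 with KRT14 or KRT15 marks basal layers, KRT4 with KRT13 marks the suprabasal layers of moist stratified epithelia such as esophagus, and KRT6 is known for its induction in wounded or stressed skin. In prostate, KRT13 has been described in basal and stem-like cells.

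Library totals ranged from 28467089 to 39239760 counts, and all 18 members passed the filter on low counts that kept 11373 genes. The members together took 0.128% to 0.157% of the counts of a library. In 7 of 18 members (38.9%), among them Krt4, Krt15, Krt19 and Krt78, replicate 1 was the highest library at all 3 times, which held for 6.38% of all genes tested. What sets these libraries apart was not tested. The labels describe the line as epithelial-like, and its markers gave a mixed picture. The luminal regulators Foxa1, at a mean of 286 CPM (CPM are counts relative to the library total, scaled by TMM), and Hoxb13 at 92.2 CPM were high, and so was the tight junction gene Cldn3 at 571 CPM. The defining epithelial genes Cdh1, at a mean of 0.0470 CPM, Epcam at 0.00997 CPM and Ocln at 0.00640 CPM were at or near 0. The basal master regulator Trp63, at a mean of 0.152 CPM, and Krt14 at 0.154 CPM were low as well, whereas Krt15 stood at 200 CPM. The markers of endothelium summed to at most 0.611 CPM in any library and those of leukocytes to at most 1.11 CPM. Of the 7 fibroblast markers in the table, 6 were under 1 CPM, and the list summed to 15.3 to 18.0 CPM over all libraries, nearly all of it from Pdgfra at 16.5 CPM.

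Before the 12 h and 24 h samples, the keratin mRNA pool of these cells was dominated by Krt4. Levels between genes are given as CPM per kb of exon. The length counts every base in any annotated exon of a gene, and the order, tiers, shares and sums per kb depend on this choice. Krt7, with 7.049 kb, and Krt19, with 1.855 kb, had similar means at 0 h before this division, 101.9 and 98.7 CPM. At 0 h Krt4 stood at 360, 339.9 and 356 CPM per kb in the 3 libraries, which was 56.96% to 62.97% of the summed CPM per kb of all members. Krt15 followed with a mean of 106 ± 15.8 CPM per kb (SD, n = 3), then Krt19, the small type I keratin of simple epithelia, with 53.2 ± 12.4. A middle tier held Krt78 at a mean of 18.3 CPM per kb, the simple epithelial Krt7 at 14.5, Krt80 at 12.0, Krt6a at 10.4 and Krt8 at 9.28. Krt36 at 2.52, Krt13 at 1.97, Krt83 at 1.67 and Krt79 at 0.967 formed the next tier, and Krt76, Krt32, Krt23, Krt10, Krt87 and Krt18 lay between 0.597 and 0.176 CPM per kb. The library ranges of neighbours in this order overlapped for Krt6a and Krt8, Krt13 and Krt83, Krt76 and Krt32, Krt32 and Krt23, Krt23 and Krt10, and Krt87 and Krt18, and did not overlap for the other neighbours. Krt18, the usual type I partner of Krt8 in luminal cells, had 6 to 17 counts per library, and the level of Krt8 per kb was 35.3 to 77.8 times that of Krt18 across the 9 libraries. Krt19 was the most abundant simple epithelial type I keratin.

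**Figure D1:**
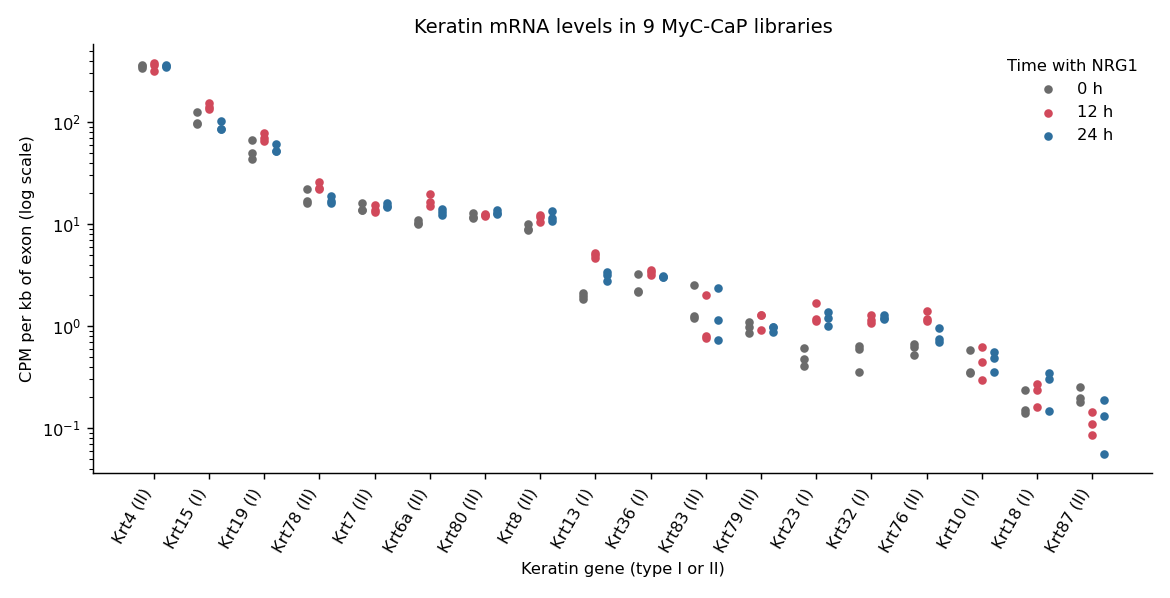
Level of each of the 18 keratin genes in each library, in CPM per kb of exon on a log axis, ordered by the mean over all libraries, with type I or II in brackets. Each point is 1 library and the colors mark 0, 12 and 24 h with NRG1 (3 libraries each). Krt4 lay above every other keratin at all 3 times, and the 12 h points of Krt13, Krt6a, Krt23, Krt32 and Krt76 lay above their 0 h points.

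At 12 h every keratin that passed the test below was higher. By edgeR's quasi-likelihood test over all 11373 genes, 5 of 18 members (27.8%) were higher by at least 1.5-fold at a Benjamini-Hochberg adjusted p of at most 0.05 and none was lower, where 2.29% of all genes tested were called, 1.34% higher and 0.958% lower. These 5 were Krt13, Krt23, Krt32, Krt76 and Krt6a. Without Krt13 the share was 4 of 17 (23.5%). By the adjusted p alone, 10 of 18 members (55.6%) were higher and none lower, against a background of 25.5% in either direction, 13.6% higher and 11.9% lower, and 9 of 17 (52.9%) without Krt13. The other 5 were Krt15, Krt19, Krt78, Krt8 and Krt36. The median log2 fold change of the members was 0.33, with 14 positive and 4 negative, beside -0.0028 over all genes tested. In 7 of 18 members every 12 h library lay above every 0 h library, with 19.9% for all genes tested. The count by adjusted p alone was 6 without replicate 3 of 0 h or without replicate 1 of 12 h. In bulk RNA, a change in the number of cells that express a keratin and a change in its RNA per cell cannot be told apart.

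**Figure D2:**
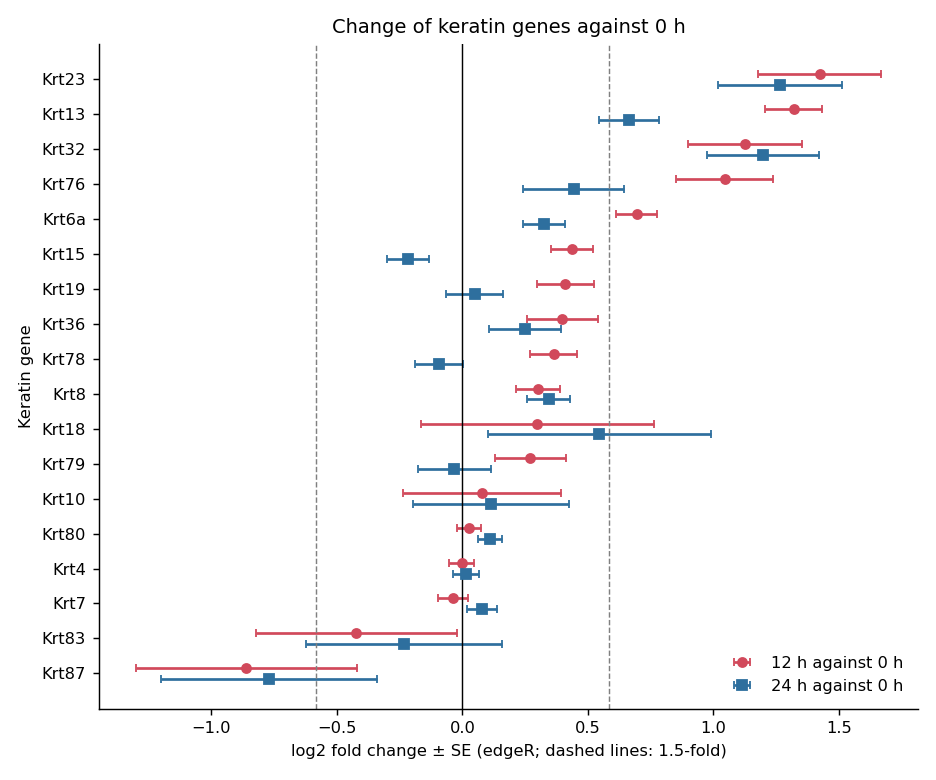
Log2 fold change ± SE of each keratin gene at 12 h (circles) and 24 h (squares) against 0 h, from the edgeR fit over 9 libraries, ordered by the 12 h value. The dashed lines mark 1.5-fold. At 12 h Krt23, Krt13, Krt32, Krt76 and Krt6a lie beyond the upper line, Krt4, Krt7 and Krt80 lie near 0, and the 2 comparisons share the 0 h libraries.

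Krt13 (ENSMUSG00000044041.4, GRCm38, chr11:100117327-100121566, minus strand), the type I keratin of moist suprabasal epithelia, had the pattern for which it was singled out. It was measured at 3.58, 3.81 and 3.37 CPM at 0 h, at 9.55, 8.36 and 8.97 CPM at 12 h and at 5.76, 5.05 and 6.22 CPM at 24 h. All 12 h libraries lay above all others and all 24 h libraries above all 0 h libraries, with no overlap between times. The raw counts behind these values were 101, 145 and 116 at 0 h, 342, 260 and 275 at 12 h, and 176, 169 and 244 at 24 h. The fitted log2 fold change was 1.32 ± 0.114 (SE) at 12 h and 0.66 ± 0.119 at 24 h against 0 h, or 2.50-fold and 1.58-fold, and -0.66 ± 0.107 at 24 h against 12 h. None of the exonic bases of Krt13 overlapped another gene, and no 50-base stretch of its exons occurred in the exons of another gene. KRT4, the usual type II partner of KRT13, did not share this course. Krt4 (ENSMUSG00000059668.6, chr15:101918535-101924735, minus strand) was measured at 769, 725 and 759 CPM at 0 h, 798, 774 and 676 CPM at 12 h, and 779.6, 734 and 761 CPM at 24 h. The 3 times overlapped, and the log2 fold change of Krt4 was -0.0028 ± 0.050 at 12 h (adjusted p = 0.979, 95% interval -0.11 to 0.10) and 0.01 ± 0.050 at 24 h (adjusted p = 0.891). Per kb, Krt4 was far above Krt13 at every time, with means of 351 and 4.92 CPM per kb at 12 h.

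**Figure D3:**
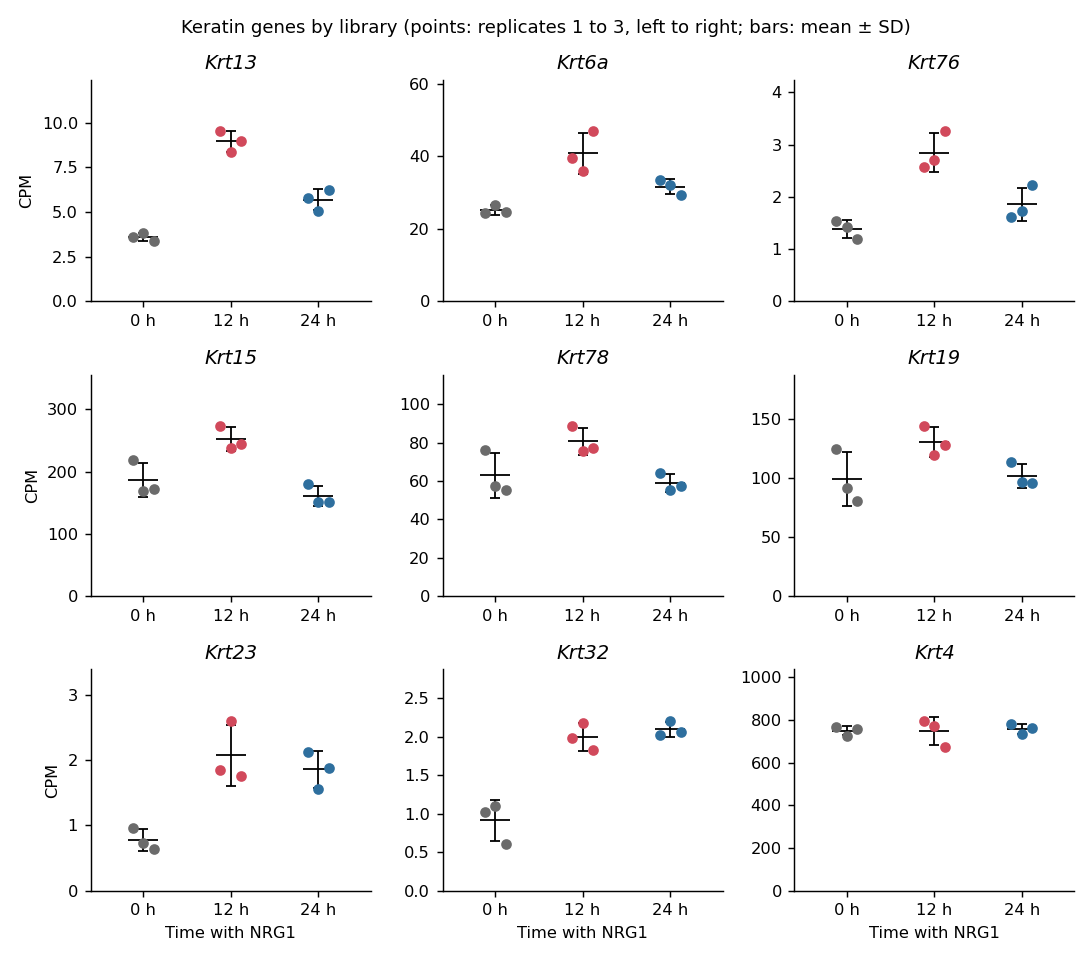
CPM of 9 keratin genes in each library at 0, 12 and 24 h with NRG1, each panel from 0 on its own axis. Points are replicates 1 to 3 from left to right and bars give mean ± SD (n = 3). Krt13, Krt6a, Krt76, Krt15 and Krt78 have their highest mean at 12 h, Krt23 and Krt32 stay above 0 h at both times, and Krt4 stays between 676 and 798 CPM.

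Krt76 and Krt6a are type II keratins, of the palate and oral mucosa and of the stress-responsive kind, respectively. Krt76 (chr15:101884351-101892920) was measured at 1.53, 1.42 and 1.19 CPM at 0 h, 2.57, 2.70 and 3.26 CPM at 12 h, and 1.60, 1.73 and 2.22 CPM at 24 h. All its 12 h libraries lay above the others, and the 24 h libraries lay only just above those of 0 h. Its log2 fold change was 1.04 ± 0.193 at 12 h (adjusted p = 8.04e-04) and 0.44 ± 0.203 at 24 h (adjusted p = 0.153), and -0.60 ± 0.183 at 24 h against 12 h (adjusted p = 0.0677). Krt6a (chr15:101689910-101694307) was measured at 24.2, 26.6 and 24.6 CPM at 0 h, 39.4, 36.0 and 47.0 CPM at 12 h, and 33.5, 32.0 and 29.3 CPM at 24 h. The times did not overlap, with 12 h highest and 0 h lowest. Krt6a rose by a log2 fold change of 0.69 ± 0.082 at 12 h (adjusted p = 1.47e-05) and 0.32 ± 0.083 at 24 h (adjusted p = 0.0122), and fell by 0.37 ± 0.080 on the log2 scale from 12 h to 24 h (adjusted p = 0.0136). Without replicate 1 of 24 h the adjusted p of Krt6a at 24 h against 0 h was 0.0545, and without replicate 3 of 24 h that of 24 h against 12 h was 0.0846. Of the Krt6a exons, 16.5% of 150-base and 45.7% of 50-base stretches also occurred in other genes, among them Krt6b, Krt5 and Krt76, and 24.8% of its exonic bases overlapped genes on the opposite strand. Its level is therefore uncertain, and Krt6b itself had 11 counts in all.

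Krt23 and Krt32 were higher at both times. Krt23 (chr11:99477974-99493137), a type I keratin of simple and glandular epithelia, was measured at 0.958, 0.737 and 0.639 CPM at 0 h, 1.84, 2.60 and 1.76 CPM at 12 h, and 2.13, 1.56 and 1.88 CPM at 24 h. No library of 12 h or 24 h fell into the range of 0 h. The raw counts of Krt23 at 0 h were low, at 27, 28 and 22. Its log2 fold change was 1.42 ± 0.246 at 12 h (adjusted p = 4.5e-04) and 1.27 ± 0.248 at 24 h (adjusted p = 0.00175), and -0.16 ± 0.212 between 12 and 24 h (adjusted p = 0.742, 95% interval -0.60 to 0.29). Krt32 (chr11:100080848-100088226), a type I keratin of the hair cuticle, was measured at 1.03, 1.10 and 0.610 CPM at 0 h, 1.98, 2.19 and 1.83 CPM at 12 h, and 2.03, 2.21 and 2.06 CPM at 24 h. Every later library lay above 0 h here as well, and the 12 h and 24 h ranges overlapped. The raw counts of Krt32 at 0 h were 29, 42 and 21. Krt32 rose by a log2 fold change of 1.13 ± 0.226 at 12 h (adjusted p = 0.00152) and 1.20 ± 0.223 at 24 h (adjusted p = 0.00118), with 0.07 ± 0.198 between 12 and 24 h (adjusted p = 0.881, 95% interval -0.35 to 0.49). Of its exonic bases, 14.5% overlapped a gene on the opposite strand. Of all genes tested, 4 at 12 h and 6 at 24 h passed a stricter test that the change exceeds 1.5-fold (glmTreat). Among the keratins it was passed by Krt13 at 12 h only, with an adjusted p of 0.286 for Krt23 at 12 h and 0.793 for Krt23 and Krt32 at 24 h.

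The abundant keratins Krt15, Krt19 and Krt78 rose less than 1.5-fold at 12 h and were back at or below the 0 h range at 24 h. Krt15 (chr11:100131758-100135928), the type I keratin of basal and stem-like cells, was measured at 219, 169 and 172 CPM at 0 h, 274, 238 and 245 CPM at 12 h, and 179, 150.5 and 152 CPM at 24 h. The 12 h libraries lay above all others, and those of 0 and 24 h overlapped. Krt15 rose by a log2 fold change of 0.44 ± 0.084 at 12 h (adjusted p = 0.00115), stood at -0.22 ± 0.085 at 24 h against 0 h (adjusted p = 0.0909), and fell by 0.65 ± 0.085 on the log2 scale from 12 to 24 h (adjusted p = 3.29e-04). Krt19 (chr11:100140810-100148665) was measured at 124, 91.6 and 80.2 CPM at 0 h, 144, 119.6 and 128 CPM at 12 h, and 114, 96.4 and 95.6 CPM at 24 h. Its replicate 1 of 0 h lay inside the 12 h range. Krt19 rose by a log2 fold change of 0.41 ± 0.113 at 12 h (adjusted p = 0.0134), with 0.05 ± 0.114 at 24 h (adjusted p = 0.823) and -0.36 ± 0.113 between 12 and 24 h (adjusted p = 0.0761). Krt78 (chr15:101946001-101954287), a type II keratin of stratified epithelia, was measured at 76.4, 57.2 and 55.4 CPM at 0 h, 88.9, 75.5 and 77.4 CPM at 12 h, and 64.1, 55.2 and 57.1 CPM at 24 h. Here too replicate 1 of 0 h reached the 12 h range, and the 24 h libraries lay below all of 12 h. Krt78 rose by a log2 fold change of 0.36 ± 0.095 at 12 h (adjusted p = 0.00967) and fell by 0.46 ± 0.095 on the log2 scale from 12 to 24 h (adjusted p = 0.0108), with -0.09 ± 0.096 at 24 h against 0 h (adjusted p = 0.564). At 12 h, leaving out each library in turn kept the log2 fold change of Krt19 between 0.29 and 0.61 and that of Krt78 between 0.29 and 0.52, but the adjusted p of both exceeded 0.05 when any of 3 libraries was left out. Without replicate 2 of 0 h, replicate 3 of 0 h or replicate 1 of 12 h their adjusted p was 0.0570, 0.0697 and 0.0760 for Krt19 and 0.0508, 0.0546 and 0.0621 for Krt78. Between 12 and 24 h, Krt78 had an adjusted p of 0.0766 without replicate 1 of 12 h, 0.0652 without replicate 2 of 24 h and 0.0647 without replicate 3 of 24 h. The list of prostate basal markers, which holds Krt15, summed to 248 to 291 CPM at 0 h, 330.2 to 362 CPM at 12 h and 236 to 261 CPM at 24 h. Of its other members in the table, Cd44 had means of 66.6, 75.8 and 68.8 CPM and Lgr6 of 9.48, 17.8 and 15.3 CPM at 0, 12 and 24 h, and Trp63 and Krt14 were at or near 0. The part of these genes in the keratin changes was not tested.

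The luminal keratin Krt8 rose slightly and Krt7 did not pass a test. Krt8 was measured at 19.7, 17.6 and 17.3 CPM at 0 h, 22.8, 23.8 and 20.4 CPM at 12 h, and 26.2, 22.2 and 20.8 CPM at 24 h. All later libraries exceeded all 0 h libraries, if narrowly. The log2 fold change of Krt8 was 0.30 ± 0.087 at 12 h (adjusted p = 0.0169) and 0.34 ± 0.086 at 24 h (adjusted p = 0.0107), and 0.04 ± 0.085 between 12 and 24 h (adjusted p = 0.838). At 12 h its adjusted p was 0.0590 without replicate 2 of 0 h, 0.0656 without replicate 3 of 0 h, 0.0604 without replicate 1 of 12 h and 0.0748 without replicate 2 of 12 h. At 24 h it was 0.0501 without replicate 3 of 0 h and 0.0689 without replicate 1 of 24 h. Some reads of Krt8 can match its pseudogene Krt8-ps, which held 8.51% of its 150-base and 26.9% of its 50-base stretches. Krt18 was measured at 0.203 to 0.342 CPM at 0 h, 0.228 to 0.386 CPM at 12 h and 0.209 to 0.491 CPM at 24 h, and its log2 fold change of 0.30 ± 0.465 at 12 h (adjusted p = 0.686, 95% interval -0.69 to 1.28) left a change of either sign possible at this depth. Krt7 stayed between 92.9 and 112 CPM in all libraries, with log2 fold changes of -0.04 ± 0.060 at 12 h (adjusted p = 0.695) and 0.08 ± 0.060 at 24 h (adjusted p = 0.438).

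Of the remaining members, only Krt36, a hair keratin, passed the adjusted p, and by a narrow margin. It was measured at 3.66, 5.37 and 3.60 CPM at 0 h, 5.31, 5.66 and 5.84 CPM at 12 h, and 5.11, 5.05 and 4.99 CPM at 24 h, so that replicate 2 of 0 h lay inside the 12 h range. Its log2 fold change at 12 h was 0.40 ± 0.142 (adjusted p = 0.0494), and the adjusted p stayed at or below 0.05 in 5 of 16 alternative fits. Leaving out replicate 3 of 0 h gave 0.172 and leaving out replicate 1 of 0 h gave 0.155, whereas a call at 1.5-fold was reached without replicate 2 of 0 h. In the fit as reported, 8 members passed no test, which were Krt4, Krt7, Krt80, Krt79, Krt83, Krt10, Krt18 and Krt87, with log2 fold changes from -0.86 to 0.30 at 12 h and from -0.77 to 0.55 at 24 h. The widely expressed Krt80 lay between 73.6 and 87.4 CPM in all libraries, a narrow range. The hair keratins Krt83, with 1.35 to 4.68 CPM, and Krt87, with 0.127 to 0.568 CPM, had the lowest fold changes at 12 h, -0.42 ± 0.401 and -0.86 ± 0.440 (adjusted p = 0.482 and 0.169). Krt83 was measured at 4.68, 2.31 and 2.21 CPM at 0 h, 3.69, 1.42 and 1.47 CPM at 12 h, and 4.32, 1.35 and 2.11 CPM at 24 h, so that replicate 1 stood far above the others at every time and each 12 h library lay below the 0 h library of its number. With the replicate number added to the edgeR fit as a block, Krt83 was lower at 12 h, at -0.52 (adjusted p = 0.0397). The numbers were not taken to pair libraries, as given below. The 12 h libraries of Krt87 all lay below those of 0 h, the only member with that order, which 18.5% of all genes tested had. This order rests on raw counts of 16, 17 and 14 at 0 h and 9, 6 and 10 at 12 h. Of the 50-base stretches, 22.1% of those of Krt83 and 36.9% of those of Krt87 were found in other genes. At the read length of 150 bases these shares were 0.0% and 1.97%. Krt79 stood at -0.03 to 0.27 on the log2 scale against 0 h, and Krt10, the suprabasal keratin of epidermis, at 0.08 ± 0.316 at 12 h (adjusted p = 0.891).

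At 24 h fewer keratins stood above 0 h. Against 0 h, 3 of 18 members (16.7%) were called higher, Krt13, Krt23 and Krt32, and none lower, with 2.27% of all genes tested called, 1.68% higher and 0.589% lower. Without Krt13 this was 2 of 17 (11.8%). By the adjusted p alone 5 of 18 (27.8%) were higher, with Krt6a and Krt8 added, and none lower, against a background of 9.67% higher and 7.76% lower (17.4% in all), and 4 of 17 (23.5%) without Krt13. The median log2 fold change of the members was 0.11, beside -0.0065 over all genes tested. In 6 of 18 members every 24 h library lay above every 0 h library, with 17.6% for all genes tested. Both comparisons use the same 0 h libraries and are not independent of each other.

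The comparison of 24 h with 12 h does not use the 0 h libraries. Here 2 of 18 members (11.1%), Krt13 and Krt15, were called lower and none higher, where 0.0879% of all genes tested, 10 genes in all, were called lower and 0.202% higher, 0.29% in all. Without Krt13 this was 1 of 17 (5.88%). By the adjusted p alone 4 of 18 (22.2%) were lower, Krt13, Krt15, Krt78 and Krt6a, and none higher, against a background of 3.06% lower and 1.97% higher (5.03% in all), and 3 of 17 (17.6%) without Krt13. The median log2 fold change of the members was -0.07, and 0.02 without Krt13, beside 0.0023 over all genes tested. In 7 of 18 members all 24 h libraries lay below all 12 h libraries, with 13.6% for all genes tested. Without replicate 2 of 24 h, Krt13 differed from 12 h by -0.58 and missed the 1.5-fold limit, which left Krt15 as the only call. Without replicate 3 of 24 h, 2 members passed the adjusted p, Krt13 and Krt15. In a test of the 3 times at once 9 of 18 members passed, and 8 of 17 without Krt13, against 27.4% of all genes tested. By their pairwise tests the members fell into those higher at 12 h and lower again at 24 h (Krt13, Krt15, Krt78 and Krt6a), those higher at both times (Krt8, Krt23 and Krt32), those that passed only at 12 h (Krt19, Krt36 and Krt76) and the 8 that passed no test. The shares of all genes tested in these classes were not determined, so the classes are a description only.

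As type I and type II chains assemble with each other, their summed mRNA was compared. The type I members summed to 197, 152 and 146 CPM per kb at 0 h, 244, 211 and 219 CPM per kb at 12 h, and 172, 146 and 147 CPM per kb at 24 h. The type II members summed to 436, 405 and 419 CPM per kb at 0 h, 460.0, 441 and 398 CPM per kb at 12 h, and 445, 415 and 427 CPM per kb at 24 h. The sum of type I was highest at 12 h with no overlap, whereas that of type II overlapped across the times. The ratio of type II to type I was 2.58 ± 0.334 (SD, n = 3) at 0 h, 1.93 ± 0.143 at 12 h and 2.78 ± 0.168 at 24 h, and the 12 h libraries, at 1.82 to 2.09, lay below all others, which began at 2.215. No test was made of this ratio, since its members were chosen with results known. Krt4 and Krt15 set much of it. Without them the ratio was 1.16 at 0 h, 1.00 at 12 h and 1.14 at 24 h, with 12 h libraries from 0.962 to 1.03 and all others from 1.04. By the adjusted p, 6 of 8 type I members and 4 of 10 type II members were higher at 12 h, beside 13.6% of all genes tested, with median log2 fold changes of 0.42 and 0.15, and 3 of 8 and 2 of 10 at 24 h, beside 9.67%, with medians of 0.40 and 0.05. By site of known expression, 4 of 8 suprabasal and stress keratins, 3 of 5 simple epithelial keratins, the basal Krt15 and 2 of 4 hair keratins were higher at 12 h, beside the same 13.6%. Krt13, chosen for its response, is counted among the higher type I members and the higher suprabasal and stress keratins. These counts are not given without it and are a description only.

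**Figure D4:**
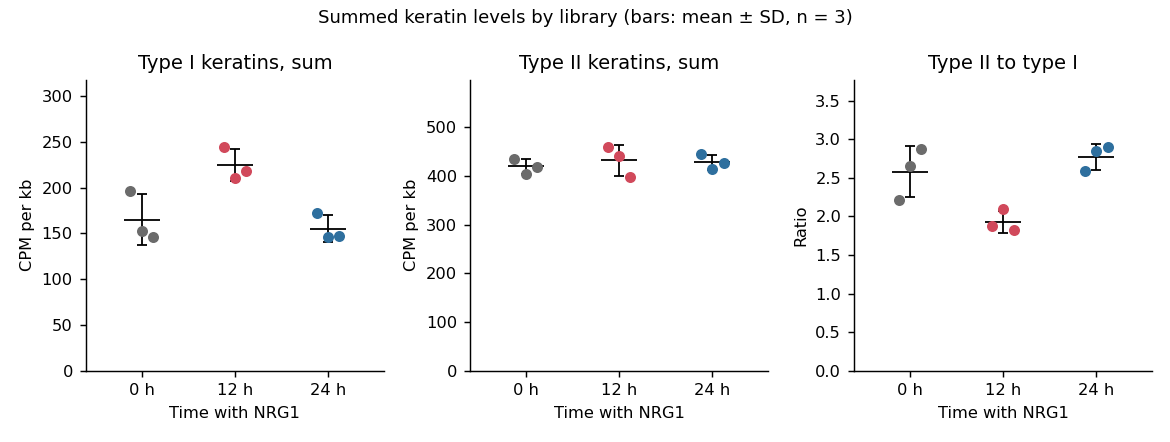
Sum of the type I keratins, sum of the type II keratins (both in CPM per kb of exon) and the ratio of type II to type I in each library at 0, 12 and 24 h with NRG1. Points are libraries, bars give mean ± SD (n = 3) and all axes start at 0. The ratio at 12 h, with a mean of 1.93, lies below every library of 0 h and 24 h, where the means are 2.58 and 2.78.

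Keratin genes lie in a type I cluster on chromosome 11 and a type II cluster on chromosome 15, where Krt18 is the type I exception. Of the 7 members on chromosome 11, all on the minus strand, 6 were higher at 12 h by the adjusted p, where 13.6% of all genes tested were. Krt13, chosen for its response, is 1 of these 6, and the count is not given without it. Among the members, these 6 followed each other in the order Krt23, Krt32, Krt36, Krt13, Krt15 and Krt19, with 587.7 kb between Krt23 and Krt32. From Krt32 to Krt19 the gaps between members were 13.8, 11.7, 10.2 and 4.9 kb. Krt13 itself lies between Krt36, which rose by 0.40 on the log2 scale, and Krt15, which rose by 0.44, beside 1.32 for Krt13. Of the 11 members on chromosome 15, 4 were higher. Krt76 and Krt4, 25.6 kb apart on the same strand, differed at 12 h with log2 fold changes of 1.04 and -0.0028. The difference between neighbours was not tested.

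**Figure D5:**
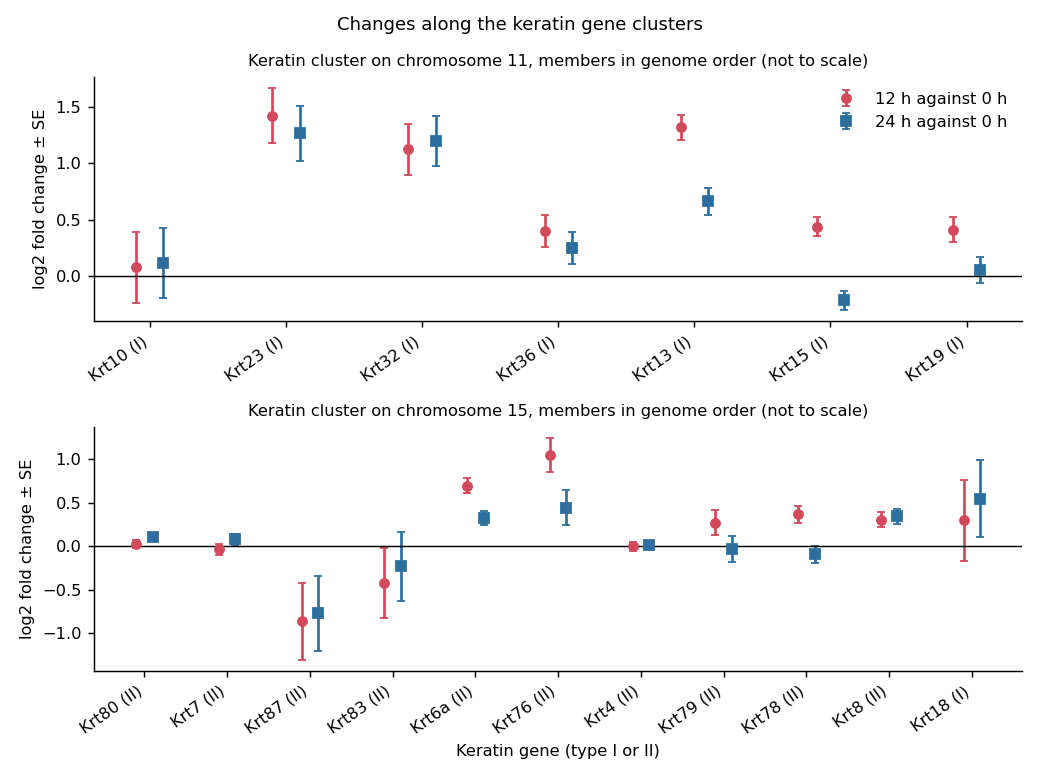
Log2 fold change ± SE at 12 h (circles) and 24 h (squares) against 0 h for the members on chromosome 11 (upper panel) and chromosome 15 (lower panel), in genome order and not to scale. On chromosome 11 the 12 h values of the 6 members from Krt23 to Krt19 lie between 0.40 and 1.42. On chromosome 15 the riser Krt76 stands between the riser Krt6a and Krt4, which lies at about 0.

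The sequence just before the start of transcription is shown for the 4 members called at 12 h that had a RefSeq promoter entry (GRCm38.p6), for Krt78, which rose less, and for Krt10, which passed no test. Of the 18 members 11 had an entry, with 12 entries in all as Krt13 had a further internal start, and Krt4, Krt6a, Krt15, Krt19, Krt80, Krt83 and Krt87 had none. Each line gives the 100 bases before the first transcribed base, 5′ to 3′ on the strand of the gene. The TATA-type box nearest the start of transcription (TATAAA, or CATAAA, a variant searched for after the sequences were seen) is in capitals. A further TATAAA near the 5′ end of the Krt32 line is left in lower case. They lie at chr11:100121567-100121666 for Krt13, chr15:101892921-101893020 for Krt76, chr11:99493121-99493220 for Krt23, chr11:100088270-100088369 for Krt32, chr15:101954288-101954387 for Krt78 and chr11:99389365-99389464 for Krt10, all on the minus strand.
Krt13: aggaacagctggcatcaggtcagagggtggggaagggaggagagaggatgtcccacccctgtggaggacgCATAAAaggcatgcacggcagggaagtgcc
Krt76: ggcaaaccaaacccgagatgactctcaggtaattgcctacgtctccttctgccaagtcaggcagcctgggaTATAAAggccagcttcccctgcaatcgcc
Krt23: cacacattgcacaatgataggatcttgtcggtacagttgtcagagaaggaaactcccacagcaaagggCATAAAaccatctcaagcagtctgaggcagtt
Krt32: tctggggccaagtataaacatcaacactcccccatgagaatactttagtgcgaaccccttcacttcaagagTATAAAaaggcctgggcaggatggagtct
Krt78: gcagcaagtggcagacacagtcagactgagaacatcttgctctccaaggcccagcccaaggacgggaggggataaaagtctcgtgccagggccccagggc
Krt10: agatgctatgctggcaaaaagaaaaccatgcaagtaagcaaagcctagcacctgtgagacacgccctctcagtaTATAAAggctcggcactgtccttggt
The RefSeq starts of Krt23 and Krt32 lie 17 and 43 bases from the annotated gene start, and the others at it.

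Krt76 and Krt32 held TATAAA from base -29 and Krt10 from base -26, whereas Krt13 held CATAAA from base -30 and Krt23 from base -32. Krt78 held neither, though its line reads gataaa, a variant that was not searched for. As CATAAA was added after the sequences were seen, the boxes of Krt13 and Krt23 give no contrast with Krt78. On the coding strand of the last 50 bases, TATAAA occurred in 2.63% and CATAAA in 1.33% of 32851 RefSeq promoters. Of the other 5 members with an entry, Krt8 and Krt36, higher at 12 h by the adjusted p, and Krt7, Krt18 and Krt79, which passed no test, held neither there. The entries of Krt7 and Krt8 start 1360 and 140 bases from the annotated gene start. The AP-1 motif TGANTCA occurred on either strand of the 250 bases before the start in 6.75% of all promoters, 1 time in the window of Krt13 and not in those of Krt76, Krt23, Krt32, Krt78 or Krt10. The GC box GGGCGG, found in 32.7% of promoters, occurred in none of these 6 windows. Such matches are descriptions of the sequence, and binding was not measured here.

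Among genes that hold, accompany or regulate keratin filaments, in 5 lists written from general knowledge, no gene was called at 1.5-fold in any comparison, where 2.29%, 2.27% and 0.29% of all genes tested were called at 12 h, at 24 h and between them, so that a count of 0 in lists of this size is near the background. Desmosomes anchor keratins between cells, and of 15 listed desmosome genes 11 were in the table. Of these, Dsp with 15 counts over the 9 libraries, Dsg2 with 6, Dsc1 with 2 and Pkp1 with 45 were too low to be tested. Whether these cells form desmosomes that hold keratins was not tested, and the changes below are those of single genes. Of 7 tested desmosome genes 1 was higher and 3 were lower at 12 h by the adjusted p. Over all genes tested 13.6% were higher and 11.9% lower, and the median log2 fold change of the 7 was -0.03. The higher gene was the plakophilin Pkp2, at 0.25 ± 0.058 (adjusted p = 0.00471), and the lower ones were Jup, Ppl and Evpl, at -0.20, -0.16 and -0.21. Ppl, a plakin and the most abundant of them, had a mean of 279.8 CPM. At 24 h Pkp4 at 0.14 and Pkp3 at 0.45 were higher, beside 9.67% of all genes tested, and from 12 to 24 h Pkp4 and Evpl rose by 0.17 and 0.20 while Pkp2 fell by 0.24 on the log2 scale, beside 1.97% and 3.06% of all genes tested. Of 7 tested genes of hemidesmosomes and plakins, which tie keratins to the matrix side, Cd151 at 0.13 ± 0.039 was higher at 12 h (adjusted p = 0.0179), a share near the 13.6% of all genes tested, and no other passed at any time, the most abundant being Plec at a mean of 431 CPM with 0.06 ± 0.079 (adjusted p = 0.644). Among 6 other tested intermediate filament genes the 3 lamins were higher at both times, beside 13.6% and 9.67% of all genes tested, Lmnb1 by 0.48 and 0.49, Lmnb2 by 0.31 and 0.31, and Lmna, the most abundant at 499 CPM, by 0.18 and 0.12 on the log2 scale. Vim, the filament of mesenchymal cells, was lower at 24 h, at -0.13 ± 0.039 (adjusted p = 0.0338). These genes, other than Ppl, Plec and Lmna, were named after their values were seen.

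Markers and regulators of squamous differentiation held some smaller changes. Only 4 of 26 listed squamous genes were expressed enough to be tested. Among these 4 only Cdsn, a cell adhesion protein of cornified layers, passed the adjusted p. Cdsn was higher by 0.38 ± 0.085 at 12 h (adjusted p = 0.00362) and 0.53 ± 0.084 at 24 h (adjusted p = 2.9e-04). Of all genes tested, 13.6% were higher at 12 h and 9.67% at 24 h. Of 16 tested regulators of keratin transcription, 4 were higher and 2 lower at 12 h, beside 13.6% and 11.9% of all genes tested, which puts the lower count near the background, and the median of their log2 fold changes was -0.04. The higher ones, named after their values were seen, were Klf4 at 0.45 ± 0.086 (adjusted p = 0.00112), Cebpb at 0.29 ± 0.058 (adjusted p = 0.00142), Ovol1 at 0.24 ± 0.082 (adjusted p = 0.0398) and Klf5 at 0.21 ± 0.054 (adjusted p = 0.00935). Gata3 at -0.23 ± 0.047 (adjusted p = 0.00145) and Zfp750, a regulator of terminal epidermal differentiation, at -0.28 ± 0.061 (adjusted p = 0.00314) were lower. At 24 h Klf4, Cebpb and Klf5 were higher, at 0.40, 0.40 and 0.20, beside 9.67% of all genes tested. Gata3 and Zfp750 were lower, at -0.26 and -0.29, beside 7.76%. Between 12 and 24 h none passed, where 5.03% of all genes tested did. The lower count at 24 h and this count of 0 are near the background. The most abundant regulator, Cebpa, had a mean of 309 CPM and a log2 fold change of -0.02 ± 0.050 at 12 h (adjusted p = 0.818).

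Across the 9 libraries, the genes whose log2 CPM followed that of Krt13 most closely by Pearson's r, among 10250 ranked, were Dnajb1 (r = 0.988), a chaperone partner, Ugdh (r = 0.985) and Ugp2 (r = 0.976), which make and use UDP-glucose, Higd1a (r = 0.984), a mitochondrial protein, and Calu (r = 0.981), a calcium-binding protein of the secretory pathway. Their changes at 12 h were smaller than that of Krt13, with log2 fold changes of 0.36, 0.39, 0.29, 0.54 and 0.13 in this order. Among keratins Krt76 (r = 0.939, rank 68) and Krt6a (r = 0.924, rank 117) ranked highest, and Krt4 had r = -0.016. These values describe 9 libraries that share 3 times, and these genes were picked as the highest of all ranked.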

How the data were processed

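RNA of 9 MyC-CaP libraries (TruSeq mRNA, paired-end reads of 150 bp) was used. The authors trimmed reads with Cutadapt, aligned them to GRCm38.p6 with STAR and the GENCODE vM24 annotation, and deposited raw gene counts from featureCounts, without normalization. The use of strand in counting and the handling of multi-mapping reads were not given in the sources used here.

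Counts were analysed in edgeR 4.0.16 (R 4.3.3): filterByExpr kept 11373 of 15552 genes (73.1%), TMM scaled the libraries, and all 9 libraries were fitted together by quasi-likelihood with time as group. P-values were adjusted by Benjamini-Hochberg over all genes tested, and a call needed an adjusted p of at most 0.05 and at least 1.5-fold, as in the study. The steps were tested on simulated data first. CPM per kb divides CPM by the exonic length in GENCODE M21, where all 18 members had the same coordinates as in the table. This length merges all annotated exons of a gene, so genes with long or many annotated transcripts get a lower value. Exonic stretches of 150 and 50 bases were searched for in all other genes. Promoters are from RefSeq. Totals of 28467089 to 39239760 counts leave counting error as a limit chiefly for Krt18 and Krt87, and to a lesser degree for Krt10, Krt23 and Krt32.

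Members and gene lists were chosen with earlier results of these data known. Named in full were members called in any comparison, Krt13, and the 4 with the highest CPM per kb. From each gene list up to 3 called genes, or the most abundant where none was called, were named, and others are said to be named after their values were seen. Alternatives were other scalings and filters, DESeq2 1.42.0, a test beyond 1.5-fold, fits on 2 groups, a replicate block and leaving out each library. Replicates of a time differed by more than sampling noise (chi-square per degree of freedom 3.75 to 10.1) and were counted separately.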

Additional observations from a re-analysis of the deposited data

Results flagged for a closer look

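The change from 0 to 12 h and the change from 12 to 24 h went in opposite directions, each past an adjusted p of 0.05 in edgeR, in 4 keratins. From 12 to 24 h the log2 fold change was -0.66 for Krt13, -0.65 for Krt15, -0.46 for Krt78 and -0.37 for Krt6a, after rises of 1.32, 0.44, 0.36 and 0.69 from 0 to 12 h. The 2 changes share the 12 h libraries. The share of all genes tested that rose and then fell by the same rule was not determined, so the count of 4 is a description only. Of the 4, Krt78 missed the threshold in both comparisons without replicate 1 of 12 h, with adjusted p of 0.0621 and 0.0766.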

How the results depend on the processing

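Of 459 recomputed log2 fold changes of the 9 keratins described in full, 447 kept their side of the call, 10 lost the call and 2 gained it. Called values changed sign in 0 cases, and some that were not called did, such as Krt4 at 12 h (-0.05 to 0.08) and Krt78 at 24 h (-0.17 to 0.06). The test for changes beyond 1.5-fold (glmTreat) left 1 keratin called at 12 h, 0 at 24 h and 0 between 12 and 24 h, where it left 4, 6 and 0 genes in all. This test is stricter by construction. Without each library in turn, called keratins numbered 5 to 6 at 12 h, 3 at 24 h and 1 to 2 between 12 and 24 h. Those past the adjusted p alone numbered 6 to 10, 4 to 6 and 2 to 6, and those that differed among the 3 times 8 to 10, with 9 in the fit as reported. Krt76 between 12 and 24 h gained its call with no filter on low counts (-0.60, adjusted p = 0.0322), and Krt19 at 12 h without replicate 1 of 0 h (0.61, adjusted p = 1.41e-04). DESeq2 passed 7 keratins at 12 h by the adjusted p alone, without Krt19, Krt78 and Krt36.

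The ratio of type II to type I keratins at 0, 12 and 24 h was 3.58, 2.69 and 3.86 on summed counts and 1.16, 1.00 and 1.14 without Krt4 and Krt15. Leaving out each library gave 2.44 to 2.76, 1.85 to 1.99 and 2.71 to 2.87.

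Over all genes, the deviations of same-numbered replicates had r from -0.074 to 0.131 and not every pair passed 0.1, so the numbers were not taken to pair libraries, although replicate 1 was the highest library at all times in 7 of 18 keratins. With a replicate block 5, 3 and 2 keratins were called and 11, 6 and 5 passed the adjusted p, which added Krt83 (-0.52, adjusted p = 0.0397) at 12 h, the only keratin lower there, Krt15 (lower) at 24 h and Krt19 (lower) between 12 and 24 h. Depth limits chiefly Krt18 and Krt87, with about 100 counts each over all libraries. Krt10, Krt23 and Krt32 had 291, 469 and 504.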

Other observations

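The 23 keratin genes below the threshold held 1 to 83 counts each over the 9 libraries, and 2 of them, Krt16 and Krt31, passed the filter on low counts. The basal keratin Krt14 had 47 counts, the stress keratin Krt17 had 74, Krt16 had 64, Krt6b had 11 and the intestinal keratin Krt20 had 13, and the epidermal keratin Krt1 had 19. Against a total of 226933 counts for Krt4, these were at the edge of detection at this depth.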
